A study of Homo sapiens with 14 samples.

Results

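A set of 45 regions of open chromatin around the SOX9 gene was followed across the SUM149PT breast cancer line and 6 clones of it. They are all the regions of the deposited count table that start on chromosome 17 between 71.0 and 72.4 Mb (hg38), 45 of 65774 regions in the table. The window spans 1.4 Mb and covers SOX9 (chr17:72121020-72126416 in the RefSeq table of the same build, read toward higher coordinates), the gene-poor stretch before it and the stretch after it. The start of SOX9 lay in 1 region, 31 lay upstream and 13 lay downstream. No measured value was used to choose them.

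SOX9 is a DNA-binding transcription factor of the SOX family that is required for cartilage and testis development, and in the breast it is known from progenitor cells and from basal-like tumours. The gene stands in a long desert without other protein-coding genes. Enhancers spread through that desert, some of them very far from the gene, act on SOX9 in different tissues, and rearrangements far upstream of an intact SOX9 gene cause skeletal and gonadal disorders. An open region in an ATAC-seq experiment is a place where the Tn5 transposase could cut; it can be an enhancer, a promoter or another bound element, and the assay does not show which gene it acts on.

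SUM149PT is an established human line from an inflammatory breast cancer without oestrogen and progesterone receptor. The libraries came from the unselected line (Parental) and from 6 clones named E, EM1 to EM3, M1 and M2, which makes 7 groups of 2 libraries and 14 libraries in all. No group was treated, and every clone was derived from SUM149PT. The series concerns the intermediate state of the epithelial-mesenchymal transition, but what the clone letters stand for is not spelled out. Each clone is a single derivative line, so a difference between 2 clones is a difference between those lines, and since nothing states that replicates were separate cultures, p-values measure the spread between these libraries, which may be technical.

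E replicate 1 had the fewest counts of any library, 8138944, and EM3 replicate 1 the most, 16786823, and the 45 regions took between 0.0493% (M2 replicate 2) and 0.0776% (M1 replicate 1) of a library. Replicates correlated across all regions at 0.951 or more in 5 of the groups, at 0.948 in EM2 and at 0.873 in E. E replicate 1 stands apart: at 12 regions without a count in the 10 libraries of the other 5 groups, it carried 21.1% of the M2 level (95% interval 19.4 to 23.0, counting error only) and E replicate 2 carried 1.77% (1.31 to 2.35). The calls of clone E, its median and its change at SOX9 are also given with that library left out. The gene-end regions of all 7 epithelial genes checked (CDH1, EPCAM, GRHL2, ESRP1, OVOL2, CLDN4 and ELF3) were lower in M1 and in M2 than in Parental, and 4 of them in EM2. Over all regions 23.4% were called lower in M1, 34.9% in M2 and 6.17% in EM2. Of 5 mesenchymal genes (VIM, ZEB1, FN1, TWIST1 and SNAI2), 3 were higher in M1, 3 in M2 and 1 in EM2. Over all regions 19%, 32.1% and 3.02% were called higher in these clones. EM2's call for CDH1 was lost with loess offsets and that for GRHL2 with library totals. Loess offsets added GRHL2 lower in EM3. Removing the 10 Mb median ended the EM2 calls for CDH1, EPCAM and ELF3 and the M1 calls for ZEB1 and FN1. The summed epithelial accessibility was 347 and 312 CPM (counts scaled to a common library size) in the Parental libraries, 207 to 316 in the E and EM libraries, 34.0 and 29.4 in M1 and 10.8 and 10.5 in M2; GRHL2 was at 0 in M2 replicate 1. SNAI2 went the other way in M1 without a call, with 8.51 and 9.71 CPM against 13.4 and 15.4 in Parental. ESR1 and PGR, the receptor genes, had no gene-end region.

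The regions differed in how widely they were open. SOX9's own region and 5 others were found in all 7 peak lists that the authors deposited, while 6 were found in a single list. Apart from SOX9's own, those in all lists lay 1048.9, 912.6, 708.0, 679.7 and 144.7 kb upstream. The regions were 226 to 1201 bp wide, with a median of 428 bp against 407 bp over the table, and 23 of the 45 had a mean signal above the median of all regions. Most overlapped no annotated gene. Those 940.1 and 931.8 kb upstream lay in CASC17, a long non-coding RNA gene, and those 23.7 and 16.3 kb upstream lay in SOX9-AS1, the antisense RNA gene beside SOX9. ATAC counts carry no strand, so at SOX9-AS1 accessibility could not be assigned to either gene.

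**Figure D1:**
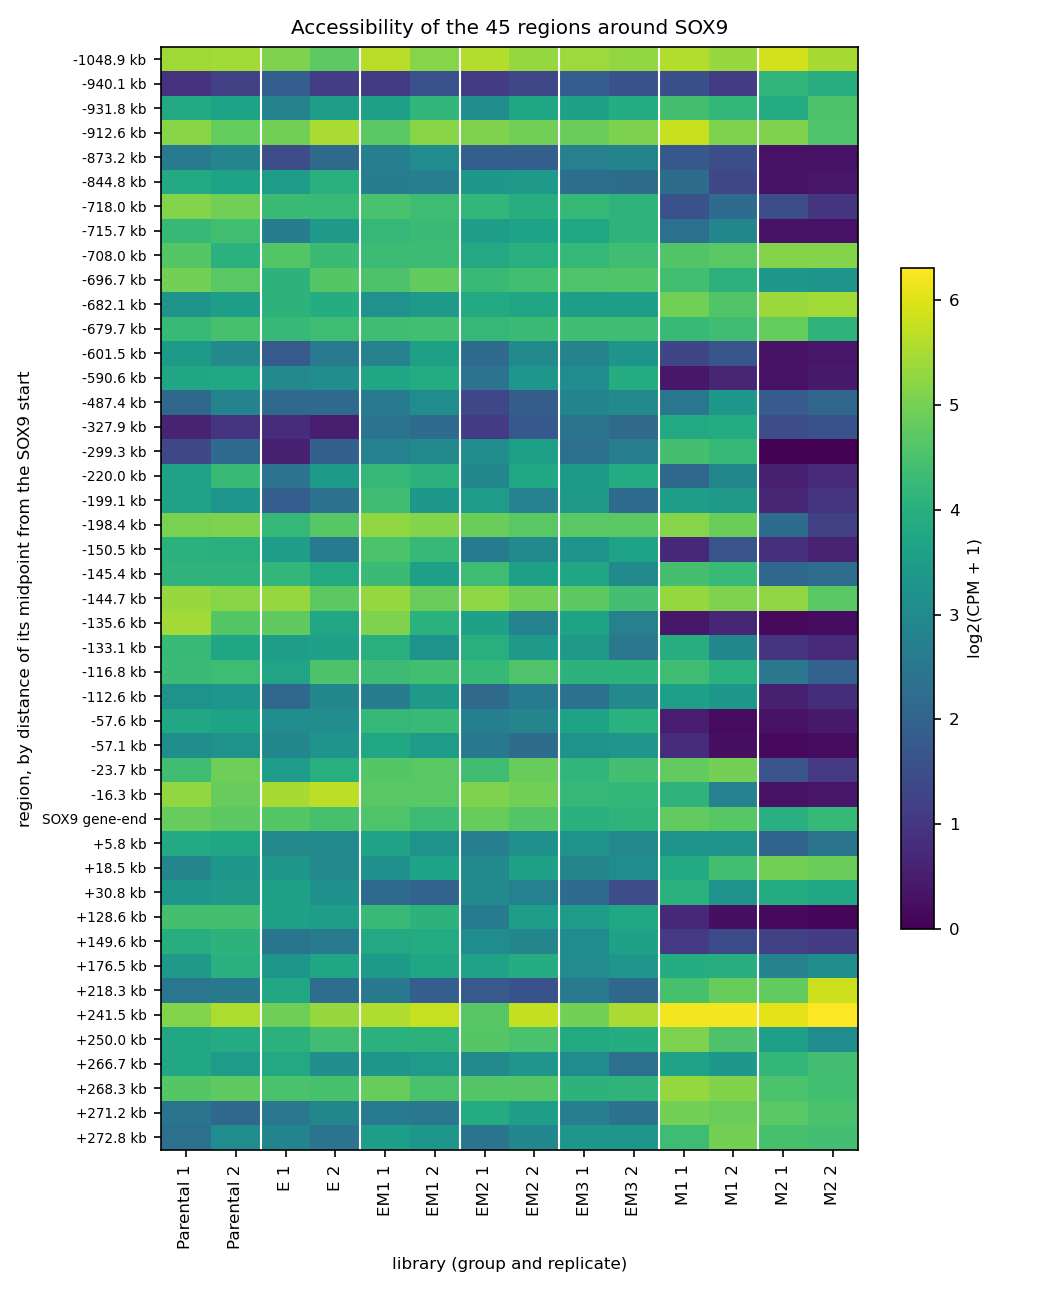
Accessibility of the 45 regions as log2(CPM + 1), with regions ordered by distance from the SOX9 start (rows, negative is upstream) and the 14 libraries in columns, a white line between groups. Dark rows in the last 4 columns are regions that were nearly closed in M1 and M2, and dark rows in the last 2 columns alone are regions nearly closed in M2; the rows 1048.9, 679.7 and 144.7 kb upstream are bright in every column.

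All comparisons below used edgeR's quasi-likelihood F test over all 65771 regions that passed the filter on low counts, which included all 45. A region was called when its Benjamini-Hochberg adjusted p over all of these was under 0.05. Of the 45 regions, 41 were called for any difference among the 7 groups, against 78.6% of all regions. The 4 that were not called lay 1048.9, 912.6, 679.7 and 144.7 kb upstream, and all 4 were in every peak list. The flattest was the region 679.7 kb upstream, whose libraries lay between 16.3 and 27.3 CPM with a median of 19.6 (adjusted p = 0.93).

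The region at the SOX9 start itself (chr17:72120816-72121319, 504 bp) was open in every library. It had the sixth highest mean of the 45 and was above 81.4% of all regions. Parental libraries had 27.9 and 25.4 CPM. M1 had 26.8 and 24.6, and EM2 had 27.7 and 23.5. E had 24.1 and 21.3, and EM1 had 23.0 and 18.9. The lowest were M2 with 14.9 and 17.6 CPM and EM3 with 15.1 and 16.1 CPM, and neither overlapped the Parental values.

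In M2 this region was 1.63-fold lower than in Parental (log2 change -0.71, SE 0.18, adjusted p = 0.0037), a call kept under every alternative run, with log2 changes from -1.28 to -0.59. In EM3 it was 1.71-fold lower (log2 change -0.77, SE 0.18, adjusted p = 0.037). That call was lost without Parental replicate 1 (log2 change -0.70, adjusted p = 0.27), Parental replicate 2 (-0.88, 0.14), EM3 replicate 1 (-0.72, 0.25) or EM3 replicate 2 (-0.84, 0.14). It was also lost when the median change of the fixed 10 Mb bin holding the region was removed (-0.37, adjusted p = 0.35). The set lies near the low-coordinate end of that bin, so most of the bin is downstream of SOX9. Its 281 regions outside the set had a median log2 change of -0.45 in EM3 and 0.64 in M2. In the adjacent bin upstream, with 246 regions, the median was 0.04 in EM3 and 0.55 in M2. Counts do not separate accessibility from the number of copies of a chromosome segment, and in these cultures a smaller share of cells with the region open cannot be told apart from less opening in each cell.

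The order of the 7 group means at SOX9 was Parental, M1, EM2, E, EM1, M2 and EM3, from 26.6 to 15.6 CPM, and no 2 neighbours in it differed by the test. M1 lay close to Parental, with a log2 change of -0.05 (SE 0.18, adjusted p = 0.84). Of the 21 pairs of groups, 7 were called. In 6 of them the lower group was M2 or EM3, set against Parental, M1 or EM2, and in the other M2 was lower than E (log2 change -0.48, adjusted p = 0.038), which was lost without E replicate 1 (-0.38, adjusted p = 0.16). E against Parental gave -0.23 (SE 0.18, adjusted p = 0.45), and -0.32 (0.46) without E replicate 1. M2 against M1 gave a log2 change of -0.65 (SE 0.18, adjusted p = 0.0078), which fell short without M2 replicate 1 (-0.54, adjusted p = 0.054).

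**Figure D2:**
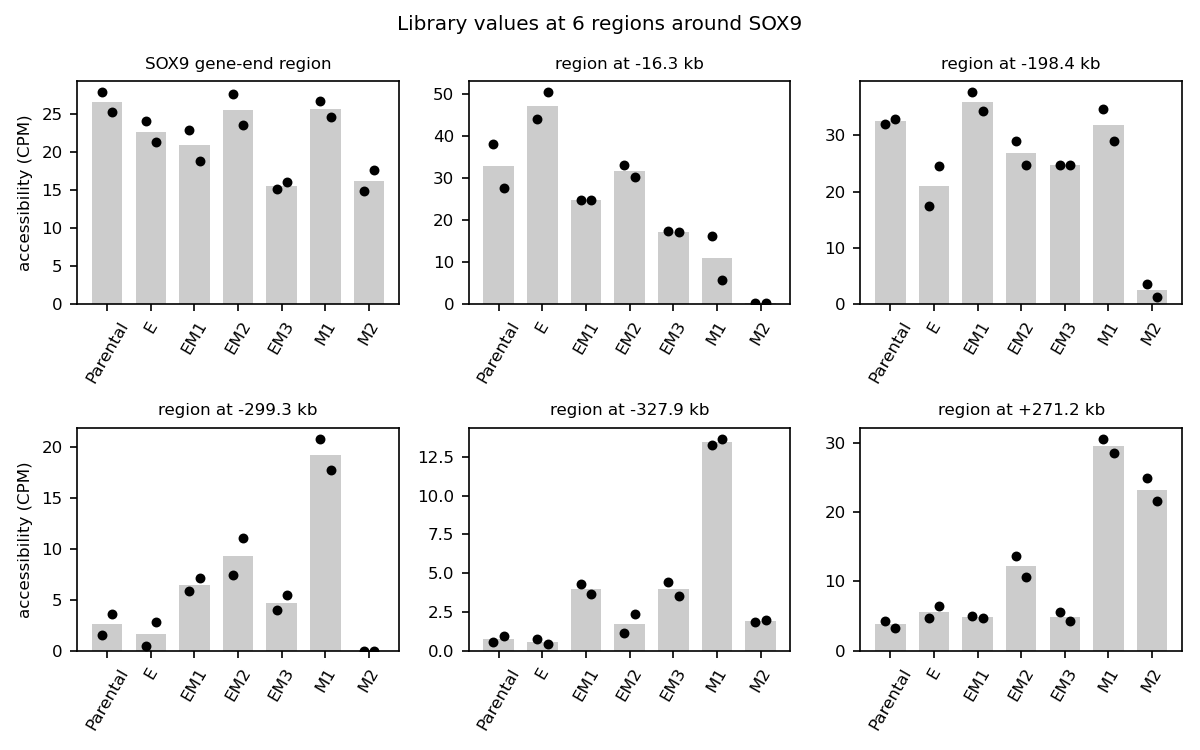
Accessibility in CPM (linear axes that start at 0) at SOX9 and at 5 distant regions, for the 7 groups; points are the 2 libraries of a group and bars their mean. The SOX9 region stays between 14.9 and 27.9 CPM, while the region 16.3 kb upstream falls under 0.31 CPM in M2 and the region 299.3 kb upstream runs from 20.8 CPM in M1 to 0 in M2.

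The upstream regions nearest to SOX9 had larger falls in M2 than the start region. Those 23.7 and 16.3 kb upstream, both in SOX9-AS1, were broadly open in the other groups. At 16.3 kb upstream, the broadest of the 45 at 1201 bp, Parental had 38.1 and 27.7 CPM and E had 44.0 and 50.5. EM1 had 24.8 in each, EM2 33.1 and 30.3, and EM3 17.5 and 17.1. M1 had 16.2 and 5.81, and M2 had 0.229 and 0.306. E was highest, M1 lower than all groups but M2, and M2 nearly closed, with no overlap between M2 and any other group.

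M2 against Parental gave a log2 change of -6.85 at that region (SE 0.54, adjusted p = 2.7e-07), and M2 against M1 gave -5.23 (SE 0.58, adjusted p = 8.7e-06). M1 against Parental gave -1.62 (SE 0.33, adjusted p = 0.0015). At 23.7 kb upstream the M1 libraries, with 26.6 and 30.7 CPM, were near the Parental ones, with 19.6 and 29.1, and M2 had 2.06 and 1.07. The log2 change there was -4.01 in M2 (SE 0.35, adjusted p = 6.4e-07) and 0.23 in M1 (SE 0.27, adjusted p = 0.52). Just past the 3′ end of SOX9, 5.8 kb downstream of its start, M2 had 3.09 and 4.36 CPM against 13.5 and 12.2 in Parental (log2 change -1.77, SE 0.29, adjusted p = 0.00013). M1 stood between them with 8.61 and 8.52 CPM, a log2 change of -0.59 from Parental (SE 0.27, adjusted p = 0.10), which was called with the 10 Mb median removed (-0.75). E (6.79 and 6.92 CPM), EM2 (5.55 and 8.03) and EM3 (8.28 and 6.85) lay under both M1 libraries, and EM1 had 11.4 and 8.30. E missed the threshold against Parental (-0.91, adjusted p = 0.052). With DESeq2 size factors E and EM2 were called lower (-0.95 and -0.96, adjusted p = 0.043 in each).

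M2 differed from Parental over most of the set, and mostly by lower accessibility. Against Parental, 35 of the 45 regions were called in M2, 26 of them lower and 9 higher, while 67% of all regions were called, 34.9% lower and 32.1% higher. The median log2 change was -1.77 in the set and -0.01 over all regions. M2 was the lowest of the 7 groups at 26 regions. The falls lay mostly upstream, 21 of 31 regions there against 5 of the 14 at or past SOX9. In M2 the median of the other regions of the same 10 Mb was above 0, as given above, and removing the window median left 31 lower and 6 higher. That was 82.2% of the set, against 60.7% of all regions called in either direction in the same run.

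M1 was divided more evenly. Against Parental 25 regions were called, 15 lower and 10 higher, with 42.4% of all regions called, 23.4% lower and 19% higher. The median log2 change was -0.05 in the set and 0.01 over all regions. Upstream 13 regions were lower and 3 higher, and at or past SOX9 2 were lower and 7 higher. The comparisons of M1 and of M2 share the Parental libraries, so the 2 clones were also compared directly: 27 regions were called between them, 23 lower in M2 and 4 higher, against 56.3% of all regions, 29.1% lower and 27.2% higher. Scaling by library totals gave 24 lower and 1 higher for that contrast (55.6%, against 54.8% of all regions in either direction). Removing the 10 Mb median gave 27 lower and 1 higher (62.2% against 47.9%).

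**Figure D3:**
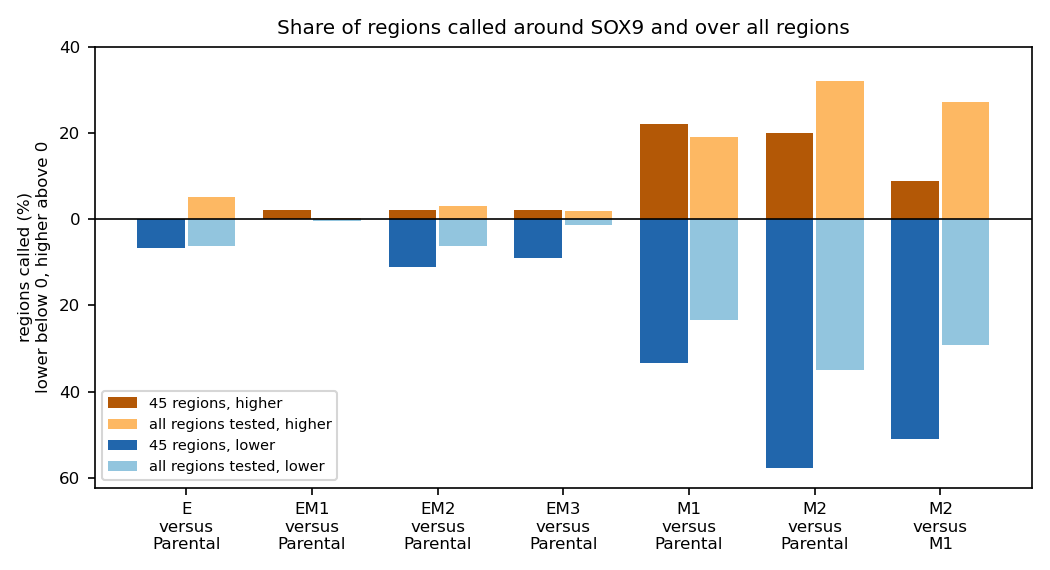
Percent of the 45 regions (dark bars) and of all 65771 regions tested (light bars) called higher (above 0) or lower (below 0) in each comparison, by edgeR at an adjusted p under 0.05. In M2 57.8% of the set was lower against 34.9% of all regions, and 20% was higher against 32.1%.

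By their calls in M1 and M2 the regions fell into classes. Of the 45, 15 were lower in both clones (33.3%, against 17.8% of all regions), 10 were lower in M2 without a call in M1 (22.2% against 14.6%), 7 were higher in both (15.6% against 11.1%), 2 were higher in M2 without a call in M1 (940.1 and 708.0 kb upstream, 4.44% against 19.7%), 2 were higher in M1 without a call in M2 (250.0 and 268.3 kb downstream, 4.44% against 5.37%), 1 was higher in M1 and lower in M2 (2.22% against 2.5%), and 8 were called in neither (17.8% against 23.3%). No region of the set was called lower in M1 and higher in M2, as 1.35% of all regions were. The M2 call 708.0 kb upstream was lost without Parental replicate 2 (log2 change 0.48, adjusted p = 0.087) or with the 10 Mb median removed (0.23, 0.37). The M1 call 268.3 kb downstream was lost without M1 replicate 1 (0.48, 0.087) or Parental replicate 1 (0.49, 0.11), or with that median removed (0.39, 0.083).

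Among the 15 regions lower in both clones, 13 lay upstream, between 873.2 and 16.3 kb from SOX9, and the other 2 were 128.6 and 149.6 kb downstream. M2 averaged under 1 CPM at 12 of them and M1 at 5, where Parental averaged 5.68 to 33.0. In the direct test M2 was lower than M1 at 8 of the 15, next to 29.1% of all regions. The share among all regions lower in both clones was not computed. The M1 calls 873.2, 696.7 and 220.0 kb upstream depended on a library. The first fell short without M1 replicate 2 (-1.28, adjusted p = 0.056) or Parental replicate 2 (-1.25, 0.054). The next did so without M1 replicate 2 (-0.49, 0.18) or Parental replicate 1 (-0.50, 0.19), and the last without M1 replicate 1 (-1.14, 0.11) or Parental replicate 2 (-1.17, 0.11).

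The steepest loss in this class was 135.6 kb upstream. Parental had 41.9 and 24.2 CPM, E had 26.1 and 12.5, and EM1 had 32.9 and 15.3. EM2 had 11.2 and 6.08, and EM3 had 11.7 and 5.74. M1 had 0.319 and 0.595, and M2 had 0.115 and 0.153. Replicate 1 was the higher library in the first 5 of these groups and the lower in M1 and M2, and no M1 or M2 library reached the others. The M1 log2 change from Parental was -6.07 (SE 0.67, adjusted p = 1.0e-05). M2 had 3 counts in its 2 libraries together against 747 in Parental, a 238-fold lower CPM with a 95% counting interval of 81.2 to 1157.

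Other places closed in both clones in a like way. At 128.6 kb downstream M2 kept 2 counts and Parental had 472, a ratio of 226 (62.1 to 1869), and M1 had 0.638 and 0.198 CPM against 20.7 in each Parental library. A pair of adjacent regions 57.6 and 57.1 kb upstream had 12.5 and 11.7 CPM, and 7.80 and 8.23 CPM, in Parental. All 4 M1 and M2 libraries were under 0.75 CPM at both of them. EM1 was the highest group at both, with 17.3 and 18.4 CPM at the farther and 12.5 and 9.97 CPM at the nearer, though neither was called against Parental. The region 718.0 kb upstream, the largest M1 fall among those with above-median signal, had 34.0 and 30.4 CPM in Parental, 14.3 to 21.6 in the E and EM libraries, 2.02 and 3.63 in M1 and 1.83 and 0.917 in M2. Its log2 change was -3.46 in M1 (SE 0.30, adjusted p = 1.5e-06) and -4.60 in M2 (SE 0.33, adjusted p = 1.3e-07).

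The 10 regions lower in M2 without a call in M1 included the SOX9 start and its 3′ neighbour. The others were 23.7, 112.6, 116.8, 133.1, 145.4, 198.4 and 199.1 kb upstream and 176.5 kb downstream. At all 10 M2 was lower than M1 in the direct test. The choice of regions by a call in M2 and none in M1 favours that outcome, so it is no separate support. How many of all regions in this class were lower in M2 than in M1 was not computed. At 198.4 kb upstream Parental had 32.0 and 32.9 CPM, EM1 had 37.7 and 34.2, and M1 had 34.7 and 28.9. E was lower with 17.5 and 24.5, and EM2 and EM3 had 24.7 to 28.9. M2 had 3.66 and 1.299, below all 12 other libraries. The M2 log2 change from M1 was -3.76 (SE 0.33, adjusted p = 1.5e-06).

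Its neighbour 199.1 kb upstream changed alike, with log2 changes of -3.72 in M2 (SE 0.58) and -0.05 in M1 (SE 0.45) against -3.79 and -0.03 at 198.4 kb. Another pair of regions within 1 kb of each other differed. The one 145.4 kb upstream had 16.3 CPM in each Parental library, 20.9 and 18.5 in M1 and 3.32 and 3.74 in M2, a log2 change of -2.20 in M2 (SE 0.37, adjusted p = 0.00018). The one 144.7 kb upstream had 39.7 and 35.3 CPM in Parental, 39.0 and 32.9 in M1 and 37.7 and 25.1 in M2. In the main fit of all 14 libraries it was not called in any clone. It was called lower in M2 with the 10 Mb median removed (-0.84, adjusted p = 0.0099). EM3 had 25.5 and 20.6 CPM there. It was called lower with the 4 libraries compared alone (-0.69, adjusted p = 0.033) or with the replicate number as a block (-0.71, 0.0091). The region 176.5 kb downstream lost its M2 call without M2 replicate 1 (log2 change -0.65, adjusted p = 0.12) or Parental replicate 2 (-0.47, 0.22) or with loess offsets (-0.55, 0.090), and its call against M1 without M2 replicate 1 (-0.84, 0.059).

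**Figure D4:**
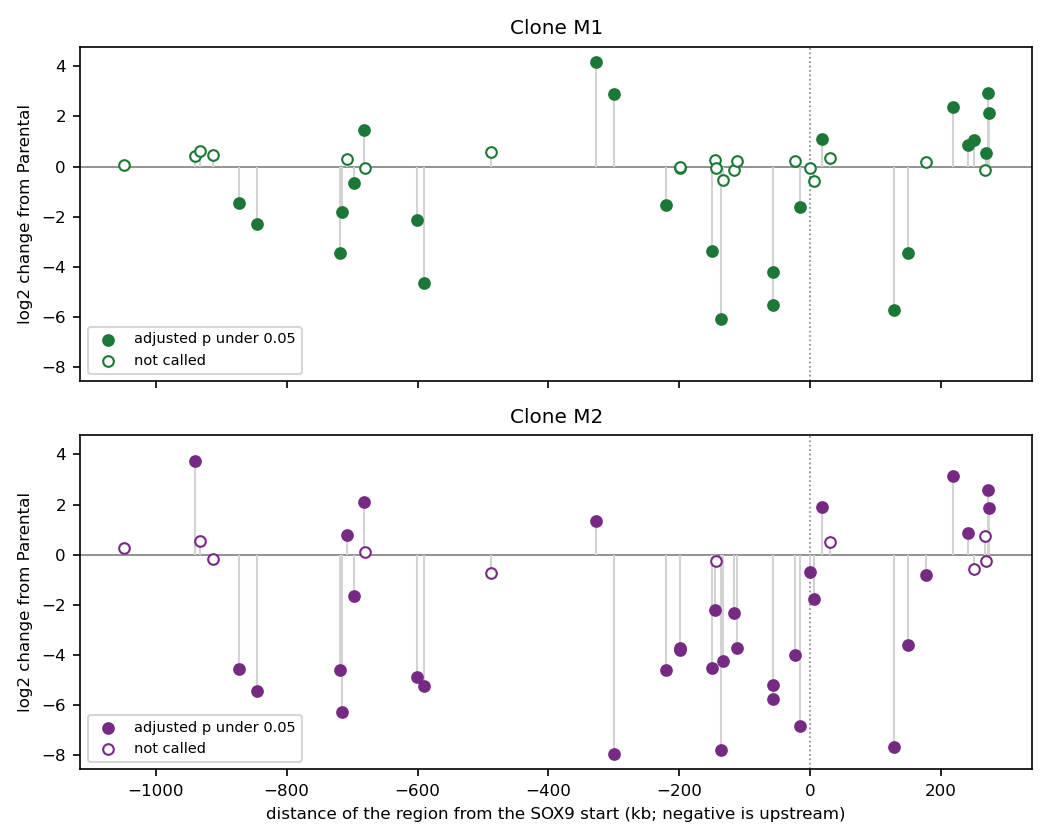
Log2 change from Parental in M1 (top) and M2 (bottom) against distance from the SOX9 start in kb; filled points were called by edgeR at an adjusted p under 0.05, open points were not, and grey lines join each point to 0. Between 199.1 and 112.6 kb upstream most M2 points lie below -2 while most M1 points lie near 0, and past 200 kb downstream most points of both clones lie above 0.

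Gains lay at the far downstream end and at a few upstream places. Of the 7 regions higher in both clones, 5 were downstream, 18.5, 218.3, 241.5, 271.2 and 272.8 kb from the SOX9 start, and 2 were upstream, 682.1 and 327.9 kb away. The region 271.2 kb downstream rose most among those with above-median signal. Parental had 4.35 and 3.31 CPM, M1 had 30.6 and 28.5, and M2 had 25.0 and 21.5. EM2 stood between with 13.7 and 10.6, and E, EM1 and EM3 had 4.23 to 6.48. The log2 change was 2.95 in M1 (SE 0.27, adjusted p = 2.3e-06), 2.60 in M2 (SE 0.26, adjusted p = 2.5e-06) and 1.67 in EM2 (SE 0.26, adjusted p = 0.0018). All 3 calls were kept when any single library was left out.

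At 218.3 kb downstream M1 had 21.3 and 27.5 CPM and M2 had 26.8 and 55.5, against 4.53 and 4.84 in Parental. The EM clones had 2.03 to 4.92. E replicate 1 had 12.9 and E replicate 2 had 3.84, so the library that carried M2-like counts at other regions was also the high library of E here; the part of those counts in this value was not tested. The region 241.5 kb downstream, the most open of the 45 on average, had 34.4 and 45.4 CPM in Parental, 71.9 and 72.1 in M1 and 65.5 and 78.3 in M2. Its log2 change was 0.85 in each (SE 0.29, adjusted p = 0.030 and 0.019). The M1 call there was lost without M1 replicate 1 (0.89, 0.068), M1 replicate 2 (0.84, 0.088) or Parental replicate 1 (0.66, 0.20). The M2 call was lost without M2 replicate 2 (0.71, 0.11) or Parental replicate 1 (0.67, 0.14), and both were lost when the 10 Mb median was removed (0.69 and 0.28).

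At 682.1 kb upstream Parental had 8.61 and 10.6 CPM, M1 had 30.3 and 23.1 and M2 had 39.97 and 41.9. The log2 change was 1.47 in M1 (SE 0.20, adjusted p = 7.2e-05) and 2.09 in M2 (SE 0.21, adjusted p = 1.9e-06). The M1 rise 18.5 kb downstream (1.11, SE 0.31, adjusted p = 0.011) was lost without M1 replicate 2 (0.77, 0.13) or Parental replicate 1 (0.86, 0.11). Within 3 kb of the risen region 682.1 kb upstream, the flat region 679.7 kb upstream had 18.3 and 19.6 CPM in M1 and 27.3 and 16.3 in M2. In the direct test, M2 was higher than M1 at 940.1 and 682.1 kb upstream and at 18.5 and 266.7 kb downstream. The call 682.1 kb upstream was lost without M1 replicate 2 (0.42, 0.15) or M2 replicate 2 (0.56, 0.075), with library totals (0.47, 0.051) or with the 10 Mb median removed (0.21, 0.40). The call 18.5 kb downstream was lost without M1 replicate 1 (0.50, 0.27), M2 replicate 1 (0.77, 0.10), M2 replicate 2 (0.83, 0.095) or EM3 replicate 2 (0.78, 0.054), with library totals (0.66, 0.084) or with the 10 Mb median removed (0.40, 0.29). The largest rise of M2 over M1 among regions with above-median signal was 266.7 kb downstream. M2 had 17.1 and 20.4 CPM there, M1 had 11.4 and 9.38, and the log2 change was 0.86 (SE 0.32, adjusted p = 0.033). It fell short without EM1 replicate 2 (0.83, 0.053), M1 replicate 1 (0.95, 0.082), M1 replicate 2 (0.71, 0.18), M2 replicate 2 (0.70, 0.17) or Parental replicate 2 (0.83, 0.054), and under scaling by library totals (0.71) or removal of the 10 Mb median (0.45).

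A few regions set M1 and M2 apart in the other direction. The region 940.1 kb upstream, in CASC17, was low in all groups but M2. Parental had 0.907 and 1.36 CPM, M1 had 1.91 and 1.19, and M2 had 16.5 and 14.4. The highest libraries outside M2 were E replicate 1 with 2.67 CPM and EM3 replicate 1 with 2.66 CPM. E replicate 2 had 1.21 and EM3 replicate 2 had 2.015. The M2 log2 change was 3.75 from Parental (SE 0.47, adjusted p = 1.4e-05) and 3.34 from M1 (SE 0.45, adjusted p = 4.8e-05). Conversely, the region 250.0 kb downstream was highest in M1, with 33.1 and 22.5 CPM against 12.8 and 13.7 in Parental and 10.9 and 7.33 in M2. EM2 had 23.9 and 21.7, which overlapped M1, and E had 15.6 and 19.7. The log2 change of the region was 1.06 in M1 (SE 0.24, adjusted p = 0.0028). EM2 was not called in the main fit. It was called higher with the 10 Mb median removed (0.89, 0.039), the 4 libraries alone (0.78, 0.034), the replicate block (0.78, 0.028) or DESeq2 (0.74, 0.048).

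The region 299.3 kb upstream was called in opposite directions in the 2 clones; it and the region 327.9 kb upstream were singled out after their values were seen. Parental had 1.54 and 3.65 CPM and E had 0.485 and 2.86. EM1 had 5.88 and 7.11, EM2 had 7.48 and 11.1, and EM3 had 3.995 and 5.44. M1 had 20.8 and 17.7, and M2 had no count in either library. All 6 EM libraries thus lay above the Parental and E libraries and below M1, with M2 at the bottom. Against Parental the log2 change was 2.88 in M1 (SE 0.53, adjusted p = 0.00084). It was 1.83 in EM2 (SE 0.53, adjusted p = 0.051), and neither EM1 (1.32, SE 0.53, adjusted p = 0.39) nor EM3 (0.84, SE 0.54, adjusted p = 0.50) was called. EM2 did pass without E replicate 1 (1.83, 0.011), E replicate 2 (1.80, 0.011) or M2 replicate 2 (1.80, 0.049), with library totals (1.85, 0.049) or with the 10 Mb median removed (1.94, 0.047). M2 was at least 19.1-fold lower than Parental (60 counts) and at least 138-fold lower than M1 (464 counts), with 3 counts over the group as the floor; edgeR called both, with adjusted p = 0.00032 and 9.8e-06.

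At 327.9 kb upstream, the Parental and E libraries had 0.439 to 0.933 CPM. EM1 had 4.27 and 3.63, EM3 had 4.40 and 3.53, and EM2 had 1.16 and 2.34. M1 was highest with 13.3 and 13.7, and M2 had 1.83 and 1.99. M1 stood above all other groups, with EM1 and EM3 next. The log2 change was 4.16 in M1 (SE 0.44, adjusted p = 7.2e-06), 2.41 in EM3 (SE 0.44, adjusted p = 0.013) and 2.39 in EM1 (SE 0.44, adjusted p = 0.031). M2 rose by 1.35 (SE 0.47, adjusted p = 0.020), less than M1 in the direct test (log2 change -2.81, SE 0.39, adjusted p = 6.1e-05). The EM3 call was lost without either Parental library (2.08 and 2.81, adjusted p = 0.16 and 0.091) or either EM3 library (2.23 and 2.53, adjusted p = 0.11 and 0.051). The EM1 call was lost without either library of EM1, EM3, M1 or Parental, with log2 changes from 2.07 to 2.81 and adjusted p from 0.053 to 0.36, and with loess offsets (2.06, 0.064). The M2 call was lost without M2 replicate 2 (1.29, 0.078) or Parental replicate 1 (1.03, 0.14), with loess offsets (1.08, 0.059) or with the 10 Mb median removed (0.79, 0.16).

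In the EM clones between 1 and 6 regions of the set were called. In EM1 1 of 45 was called, the rise 327.9 kb upstream, against 0.628% of all regions in either direction and 0.341% higher. With all 14 libraries and no block edgeR called no region lower. In that direction 3 had an unadjusted p under 0.05, and DESeq2 called 1. With the 4 libraries alone edgeR called 2 lower, 844.8 kb upstream (-1.19, adjusted p = 0.043) and 30.8 kb downstream (-1.50, 0.029). In that run 1.81% of all regions were called in either direction. With the replicate block edgeR called 1 lower, 30.8 kb downstream (-1.51, 0.013). In EM2 6 regions were called, 1 higher and 5 lower, against 9.19% of all regions, 3.02% higher and 6.17% lower. In EM3 5 were called, 1 higher and 4 lower, against 3.11% of all regions, 1.85% higher and 1.26% lower. The median log2 change of the set was -0.01 in EM1, -0.33 in EM2 and -0.28 in EM3, where over all regions it was within 0.02 of 0. For EM2, scaling by library totals gave 2 higher and 5 lower (15.6%, against 9.09% of all regions in either direction). Removal of the 10 Mb median gave 3 higher and 4 lower (15.6% against 7.24%). For EM3 that removal left 1 higher and 0 lower (2.22% against 2.32%).

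The 5 EM2 falls were 718.0, 135.6 and 57.6 kb upstream and 128.6 and 149.6 kb downstream. Both EM2 libraries lay above both M1 libraries at each of these; at 149.6 kb downstream, for example, Parental had 14.3 and 16.0 CPM, EM2 had 7.40 and 6.31, and M1 had 1.06 and 1.65. All 5 calls were lost without Parental replicate 1 (log2 changes from -1.49 to -0.96, adjusted p from 0.085 to 0.20) or without EM2 replicate 1 (from -2.44 to -0.94, adjusted p from 0.053 to 0.20). Without Parental replicate 2 the call 135.6 kb upstream remained, and without EM2 replicate 2 the call 128.6 kb downstream. The other 4 were lost in each case, with log2 changes from -1.56 to -0.92, and leaving out EM1 replicate 1 removed the call 57.6 kb upstream (-1.02, adjusted p = 0.052), as did removing the 10 Mb median (-0.91, 0.066). The EM2 rise 271.2 kb downstream is given above.

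EM3 was lower at the SOX9 start, at 135.6 and 844.8 kb upstream and at 30.8 kb downstream. At the last of these, which was called in no other clone in the main fit, EM3 had 3.65 and 1.81 CPM and EM1 had 3.65 and 2.998. Parental had 9.07 and 9.59, M1 had 15.4 and 8.52, and M2 had 14.1 and 12.5. The EM3 log2 change was -1.73 (SE 0.36, adjusted p = 0.025), and in EM1 it was -1.49 (SE 0.36, adjusted p = 0.091). EM1 was called lower with the 4 libraries alone (-1.50, 0.029), the replicate block (-1.51, 0.013) or DESeq2 (-1.52, 0.014). M2 was called higher with loess offsets (0.93, 0.029). The EM3 call was lost without either EM3 library (-2.36 and -1.37) or either Parental library (-1.77 and -1.72). Each of the 5 EM3 calls was lost when any of the 4 EM3 and Parental libraries was left out, with log2 changes from -2.52 to -0.70 for the 4 falls. Each of these runs left a single library in a group. Calls became fewer over all regions too, so the losses are not particular to this set. The fall 135.6 kb upstream was also lost without any of the M1 and M2 libraries (-1.92 to -1.90).

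In clone E 3 regions were called, all lower, against 11.6% of all regions, 6.31% lower and 5.27% higher. With all 14 libraries and no block edgeR and DESeq2 each called 0 higher, and 1 region had an unadjusted p under 0.05 in that direction. With the replicate block edgeR called 1 higher, 682.1 kb upstream (0.63, adjusted p = 0.041). The median log2 change was -0.35 in the set and 0.03 over all regions, and without E replicate 1 the set's median was -0.38. The 3 falls were 715.7 kb upstream (log2 change -1.32, SE 0.30, adjusted p = 0.016), 23.7 kb upstream (-0.998, SE 0.28, adjusted p = 0.037) and 149.6 kb downstream (-1.67, SE 0.29, adjusted p = 0.0040). Without E replicate 1 the call 149.6 kb downstream remained. The call 715.7 kb upstream then missed the threshold (-0.96, adjusted p = 0.11), as did the one 23.7 kb upstream (-0.76, 0.21). The first of these was also lost without Parental replicate 1 (-1.40, 0.060) or 2 (-1.20, 0.12), and the second without Parental replicate 1 (-1.25, 0.053) or 2 (-0.66, 0.33), EM1 replicate 2 (-0.97, 0.054), EM3 replicate 2 (-0.97, 0.053) or M1 replicate 2 (-0.97, 0.050). The call 149.6 kb downstream was lost without Parental replicate 2 (-1.56, 0.051). At that region E had 4.49 and 5.05 CPM.

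The level at the SOX9 start was set beside that of every other region over the 7 group means, which share libraries and scaling. The other 44 regions of the set had a median Pearson correlation with it of 0.32, and all regions tested had 0.00. In the set 3 of 44 exceeded 0.8, or 6.82%, against 0.993% of all regions. They were the regions 176.5 kb downstream (r = 0.94) and 144.7 and 145.4 kb upstream (r = 0.83 and 0.81). In edgeR's test for any difference among the 7 groups, the region 144.7 kb upstream was not called (adjusted p = 0.25). The one 176.5 kb downstream passed narrowly (adjusted p = 0.043). The share over 0.8 among neighbouring regions outside the set was not computed. The most opposite was the CASC17 region 940.1 kb upstream (r = -0.72). Among 11177 genes with a gene-end region on another chromosome, the 5 most like SOX9 were NBEA (r = 0.98), EBPL (0.96), TDRD3 (0.96), LRRK1 (0.95) and MSANTD4 (0.95). NBEA, EBPL and TDRD3 are all on chromosome 13. At NBEA the group means were 18.8 CPM in Parental, 18.2 in M1, 19.3 in EM2, 17.9 in E, 17.2 in EM1, 13.6 in M2 and 13.5 in EM3, a smaller spread than at SOX9.

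Genes around and related to SOX9 were read at regions within 1 kb of a gene end, of which either may be the start. Of 10 protein-coding genes flanking the desert, 5 had such a region. edgeR called none in M1, E, EM1 or EM2. In M2 all 5 were called, where 67% of all regions were. On the upstream side MAP2K6, a kinase of the p38 pathway, had 3.55 and 1.68 CPM against 14.5 and 11.5 in Parental (log2 change -2.36, adjusted p = 4.2e-05). KCNJ2, a potassium channel gene, had 8.82 and 8.02 against 25.3 and 23.5 (-1.54, adjusted p = 5.5e-05). On the downstream side SLC39A11, a zinc transporter gene, COG1 and CDC42EP4 were higher, with log2 changes of 0.61, 1.24 and 0.58. Those 3 calls were lost when the 10 Mb median was removed (0.04, 0.67 and 0.01), and SLC39A11 was also lost with library totals (0.50). In EM3 SLC39A11 (-1.10) and CDC42EP4 (-0.93) were lower, and these too were lost on removal of the median (-0.70 and -0.52).

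Of 18 other SOX genes, 6 had a gene-end region. In M1 2 were higher and 1 lower, and in M2 3 were higher and 1 lower, next to 42.4% and 67% of all regions called in these comparisons. SOX7 had 31.9 and 25.2 CPM in M1 and 22.6 and 29.0 in M2, against 4.26 and 3.99 in Parental. Its log2 change was 2.79 in M1 and 2.65 in M2, and 1.36 in EM2, where the call was lost with DESeq2 size factors (1.32), loess offsets (1.35) or the 10 Mb median removed (1.09). SOX15 had 6.06 and 7.27 CPM in M1 and 2.41 and 1.07 in M2, against 14.7 and 15.5, a log2 change of -1.17 and -3.17. SOX6, a partner of SOX9 in cartilage, and SOX12 were higher in M2 (1.26 and 1.81). The SOX4 rise in M1 (0.63) was lost with the 10 Mb median removed (0.40), and SOX13 was then called higher in M2 (0.59).

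Of 12 cartilage matrix genes that SOX9 is known to act on, COL9A3 and COL11A2 had a region. In M2 COL9A3 had 2.41 and 2.22 CPM against 12.8 and 16.7 in Parental (log2 change -2.68, adjusted p = 5.9e-06), and COL11A2 was higher (0.72, adjusted p = 0.0095). Neither was called in the other clones. Of 20 regulators and partners, 12 had a region; 3 were higher in M1 (AXIN2, RUNX2 and GLI2) and 2 lower (NOTCH1 and HES1), and 3 were higher in M2 (AXIN2, SNAI2 and YAP1) and 3 lower (BMP4, FGFR2 and EGFR), again with 42.4% and 67% of all regions called. Removal of the 10 Mb median ended the call of NOTCH1 in M1 (-0.40) and of EGFR in M2 (-0.26) and added HEY1 higher in M1 (0.56), HES1 higher in M2 (0.47) and CTNNB1 lower in M2 (-0.68). Loess offsets ended that of FGFR2 in M2 (-0.43) and added GLI2 higher in M2 (1.03) and YAP1 higher in M1 (0.53); library totals also added the last of these (0.55). BMP4, a ligand gene of the bone morphogenetic protein pathway, had 0 and 0.229 CPM in M2 against 11.3 and 12.5 in Parental and 21.6 and 14.9 in M1. AXIN2, a target of Wnt signalling, was higher in both clones (2.01 in M1 and 2.48 in M2). In M2 SNAI2, a transcription factor of the epithelial-mesenchymal transition (1.27), and YAP1, the effector of the Hippo pathway (1.62), were higher. HES1, a target of Notch signalling, had 27.0 and 24.1 CPM in M1 and 29.2 and 21.1 in EM2 against 68.2 and 59.99 in Parental. Its M1 log2 change of -1.33 became 0.18, without a call, when the median of the 10 Mb bin holding it was removed. In EM2 HES1 and NOTCH1 were the 2 genes of this list called lower, next to 6.17% of all regions. Removing that median ended the EM2 call of NOTCH1 (-0.39) but not that of HES1.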

How the data were processed

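The data are ATAC-seq libraries of SUM149PT, 14 in 7 groups. The authors deposited 1 table of raw read counts in 65774 consensus regions and 7 peak lists whose fold enrichment is a ratio from the peak caller, per the file format. The submitters' processing notes name the build hg38, the aligner Bowtie2 2.2.6, the trimmer cutadapt 1.9.1, the peak caller MACS2 2.1.1, the counter featureCounts and further tools, but not how each was used. How the regions of the table were made is not stated in the labels. Some peak lists are attached to a sample whose label differs from the clone in the list's name, so they served only to count how many of the 7 lists overlapped a region by at least 1 bp. Count columns were matched to libraries by name.

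Counts were scaled by TMM and tested with edgeR 4.0.16 (R 4.3.3) by quasi-likelihood F tests on 7 group means over all 14 libraries. The filterByExpr filter (minimum count 10) removed 3 regions. The prior count was 2 for log2 CPM and 0.125 for fitted log2 changes, and the common biological coefficient of variation 0.208. The procedure was tested on simulated data. CPM values use TMM-scaled totals. Distances run from the SOX9 start to a region's midpoint; gene ends came from a RefSeq table (GRCh38.p14). Library totals of 8138944 to 16786823 set the precision; intervals and the floor of 3 counts over a group cover counting error only.

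Regions described singly are those within 5 kb of SOX9, the 3 with the highest mean, and in each comparison the largest rise and fall among called regions with non-overlapping libraries and above-median signal; others named were picked by class or after their values were seen. Gene lists comprised SOX genes, cartilage matrix genes, regulators and partners, flanking genes, and epithelial, mesenchymal and hormone receptor markers. The 45 regions, the lists and the tests were chosen with earlier results of these data known. Alternatives were loess offsets, library totals, DESeq2 size factors, the Wald test of DESeq2 1.42.0 and no filter. Others removed the median change of each fixed 10 Mb bin, compared the 4 libraries alone, added a replicate block or left out each library. Motifs were not searched.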

Additional observations from a re-analysis of the deposited data

Results flagged for a closer look

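The region 299.3 kb upstream of SOX9 was called higher than Parental in M1 and lower in M2, and the direct test of M2 against M1 gave a log2 change of -10.83 (edgeR, adjusted p = 9.8e-06). Both M1 libraries lay above all 12 others and both M2 libraries were at 0. That fitted change depends on edgeR's prior count of 0.125, since M2 had no counts there; the bound of at least 138-fold does not. Its neighbours 327.9 and 220.0 kb upstream had 1.83 and 1.99, and 0.458 and 0.688 CPM, in the M2 libraries.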

How the results depend on the processing

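The counts of called regions in M1, in M2, in M2 against M1 and for any difference among the 7 groups stayed within 1.5 times the main count under all alternatives. For E, 3 regions became 5 with DESeq2 size factors (11.1%, against 11.7% of all regions in that run). With the 4 libraries alone 5 were called (11.1% against 7.05%), and with DESeq2 7 (15.6% against 14.7%). For EM1, 1 became 0 with loess offsets, where 0.564% of all regions were called. It became 3 with the 4 libraries alone (6.67% against 1.81%) and 2 with DESeq2 (4.44% against 1.82%). For EM2, 6 became 10 with the 4 libraries alone (22.2% against 11.5%) and 10 with DESeq2 (22.2% against 11.6%). For EM3, 5 became 9 with the 4 libraries alone (20% against 8.7%) and 1 with the 10 Mb median removed (2.22% against 2.32%). At the SOX9 start the EM3 change was -0.72 with loess offsets and -0.37 with the 10 Mb median removed, both without a call. Removing that median also turned the EM2 change there to 0.054, and the changes 1048.9 kb upstream to -0.12 in M1 and -0.30 in M2. The cause of these shifts was not tested.

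With the replicate number as a block, 13 regions were called in E (28.9%, against 19.9% of all regions under the block), 2 in EM1 (4.44% against 2.43%), 15 in EM2 (33.3% against 16.4%) and 9 in EM3 (20% against 8.33%). The labels tie the numbers to no batch, and each comparison holds 2 of them; same-numbered libraries deviated together with correlations of 0.02 to 0.59 over the 21 pairs of groups. The block changed no other count by over 1.5 times.

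Leaving out each library in turn gave 0 to 7 called regions in E, 0 to 1 in EM1, 1 to 11 in EM2, 0 to 6 in EM3, 21 to 25 in M1, 33 to 36 in M2, 22 to 28 in M2 against M1 and 38 to 41 for any difference. The log2 change at SOX9 ran from -0.32 to -0.08 in E, -0.50 to -0.23 in EM1, -0.179 to 0.0545 in EM2, -0.88 to -0.70 in EM3, -0.111 to 0.0184 in M1 and -0.85 to -0.59 in M2. Where a single library was left in a group, its spread was taken from the others. With a library left out, the share called over all regions moved too, so the changes in count are not particular to the set. Signs turned for changes near 0. At SOX9 in EM2 the value was 0.0133 without Parental replicate 1 and 0.0545 without EM2 replicate 2, and in M1 it was 0.0184 without Parental replicate 1 and 0.0027 without M1 replicate 2. At 912.6 kb upstream the M2 change ran from -0.446 to 0.0859, above 0 without Parental replicate 1 (0.0354) or M2 replicate 2 (0.0859), and at 1048.9 kb upstream the M1 change ran from -0.0548 to 0.168, below 0 without M1 replicate 1. Library totals moved the median of all regions by -0.11 in M2 against Parental and by -0.15 in M2 against M1, and loess offsets moved it by 0.12 in M2 against Parental. With 2 libraries a group, a change that missed the threshold is not shown to be absent.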

Other observations

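At 5 of the 45 regions the libraries with the same replicate number lay on the same side in all 7 groups. Replicate 1 was lower than replicate 2 in every group at 715.7 and 590.6 kb upstream and at 176.5 and 241.5 kb downstream. It was higher in every group at 144.7 kb upstream. The M2 libraries had 2 and 3 counts at 715.7 kb upstream and 2 and 5 at 590.6 kb upstream, too few to order them. The share of such regions over the whole table was not computed.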
